A study of Homo sapiens with 15 samples.

Results

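The 10 genes followed here belong to the integrated stress response, and their mRNA was read in 5 conditions in MH7A, an established human synovial cell line. They were taken as a fixed list: the transcription factors ATF4, DDIT3 (which encodes CHOP), CEBPB, CEBPG, ATF3 and ATF5, and TRIB3, PPP1R15A, CHAC1 and NUPR1, which act downstream of these factors or feed back on them. All 10 were among the 18417 named genes and the 16872 genes tested, so that no member was lost to the filter on dim signals. Total RNA was hybridised to 15 arrays, and each of 3 separate experiments supplied 1 array per condition. Resting cells had no addition. The other 4 groups all received IL-1β at 15 pg/ml for 13 h, either alone, after GlcN (glucosamine) at 5 mM given 2.5 h earlier, after GlcN with alloxan, or after alloxan alone. Alloxan, an inhibitor of OGT (the enzyme that attaches O-GlcNAc to proteins), is given by the protocol as 5 mM for 30 min and then 2 mM, a scheme stated for the combination with GlcN. GlcN and alloxan were not given to resting cells, so that their values hold for stimulated cells. MH7A is a single line, and p-values rest on the 3 experiments in that line and not on a spread between lines.

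In the integrated stress response, kinases that sense unfolded protein, lack of amino acids, heme deficiency or double-stranded RNA phosphorylate the translation factor eIF2α. Most translation then slows while ATF4 mRNA is translated better, and ATF4, with C/EBP partners, turns on genes of amino acid synthesis and transport and the gene of CHOP. PPP1R15A (GADD34) directs a phosphatase back to eIF2α and so closes the loop, and TRIB3 binds ATF4 and CHOP and restrains them. Arrays measure mRNA, so that phosphorylation of eIF2α and the translation of ATF4 were not measured here.

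ATF4 and C/EBP proteins bind together to a composite site, TGATGNAA, and cAMP response elements, TGACGTCA, are bound by the ATF/CREB family. RefSeq promoters (assembly GRCh38.p14, 250 bases before each start) were at hand for 9 of the 10 genes, 18 promoters in all, and were read on both strands. The composite letters were present in 3 of the 18, in ATF3, CEBPG and CHAC1, against 3.14% of all 35116 promoters. The full cAMP response element was present in PPP1R15A, against 1.65% of all promoters. Its shorter form TGACG, which the full element contains, was in 5 of the 18 promoters (of ATF4, ATF5, CEBPB and PPP1R15A), against 21.2%. ATF4 entered this count with overlapping windows, from chr22:39520309 and chr22:39520312, that share the same matches. The ER stress element was in none of the 18, against 0.074%. A match describes letters in the window and is not evidence of binding. The promoters with a full match are shown because they set a gene whose signal peaked with GlcN, CHAC1, beside one whose signal peaked with alloxan, ATF3, with the matched letters in capitals. They are the plus strand, which is also the strand of each gene, at chr15:40953221-40953470 for CHAC1, chr1:212565157-212565406 for ATF3, chr19:33374060-33374089 for CEBPG (a stretch around the match) and chr19:48872171-48872420 for PPP1R15A. In CHAC1 the capitals are the reverse complement of the composite site.
CHAC1: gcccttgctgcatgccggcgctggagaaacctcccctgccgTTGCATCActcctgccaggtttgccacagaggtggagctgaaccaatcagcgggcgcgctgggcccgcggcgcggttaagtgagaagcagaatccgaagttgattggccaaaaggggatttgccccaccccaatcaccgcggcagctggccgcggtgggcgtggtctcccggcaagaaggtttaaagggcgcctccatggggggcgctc
ATF3: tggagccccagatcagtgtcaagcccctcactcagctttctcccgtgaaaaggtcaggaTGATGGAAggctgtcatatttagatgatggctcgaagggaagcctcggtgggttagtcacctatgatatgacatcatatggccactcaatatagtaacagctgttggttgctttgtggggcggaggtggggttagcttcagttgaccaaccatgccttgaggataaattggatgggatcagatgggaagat
CEBPG: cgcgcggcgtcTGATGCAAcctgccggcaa
PPP1R15A: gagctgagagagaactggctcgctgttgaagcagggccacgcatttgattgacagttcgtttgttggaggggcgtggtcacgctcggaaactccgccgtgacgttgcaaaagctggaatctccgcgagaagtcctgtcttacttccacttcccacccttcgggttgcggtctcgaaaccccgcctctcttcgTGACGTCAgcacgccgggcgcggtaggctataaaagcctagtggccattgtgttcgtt

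The level of an array depended on its experiment. Median log2 signals were 6.18 to 6.21 in experiment 1, 7.14 to 7.19 in experiment 2 and 7.49 to 7.54 in experiment 3, so that values below are read within an experiment, and changes are mean differences on the log2 scale over the 3 experiments with their SD. Each comparison was tested with limma over all 16872 genes in 2 ways. The unblocked fit, which follows the unpaired test of the study, counts the gap between experiments as error. It pooled the spread over all genes and gave every gene a standard error of 0.596 log2 units where 2 groups were compared. A fit that takes experiment as a block removes that gap, and its p-values measure the variation that is left, over all 5 conditions. Its standard errors for the 10 genes were 0.0796 to 0.138 where 2 groups were compared. For the interaction of GlcN and alloxan they were 0.113 to 0.195. The words rose and fell below refer to an adjusted p under 0.05 in the blocked fit, and for each set of genes the count of the unblocked fit is also given. Counts at an unadjusted p under 0.05, and counts under settings other than these 2 fits, stand without a share of all genes. That share was not counted. Of 12 synovial fibroblast markers, 6 were above the array median on all arrays (THY1, COL1A1, COL1A2, COL3A1, VIM and PDGFRB) and 5 below it on all arrays (PDPN, PRG4, VCAM1, FAP and HAS2). Of the other markers, 1 of 6 for macrophages (CD68), 0 of 4 for endothelium and 2 of 4 for epithelium (KRT8 and KRT18) were above the median on all arrays.

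With GlcN, DDIT3, TRIB3, CHAC1, NUPR1, CEBPB, CEBPG, ATF4 and PPP1R15A rose over IL-1β alone in the blocked fit, 8 of 10 genes, where 5.29% of all genes were called higher. The mean rises ran from 0.68 for PPP1R15A to 2.22 for DDIT3, which is 1.60-fold to 4.65-fold. None of the 10 was called lower, where 6.62% of all genes were. All 10 were higher than with IL-1β alone in each of the 3 experiments, a pattern that 15.0% of all genes had. The median change was 1.30 over the 10 genes and 0.01 over all genes tested. In the unblocked limma fit 0 of the 10 passed (0.0178% of all genes were called higher and 0.00593% lower), with 5 at an unadjusted p under 0.05, namely DDIT3, CEBPB, TRIB3, CHAC1 and NUPR1. The methods' t-test called 1 without adjustment and 0 after it. It was run here on the deposited log2 values. The study lists values that were normalized further, by a step its text does not describe, so that this is not the study's own input. After all arrays were shifted to equal medians, 6 passed without the block. With the block over only the GlcN and IL-1β arrays, 0 passed after adjustment. Arrays of pooled RNA cannot tell more RNA per cell from more cells that respond.

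DDIT3 encodes CHOP, a C/EBP-like factor linked to cell death under lasting stress, and in experiments 1, 2 and 3 its log2 signal was 7.88, 8.98 and 8.78 in resting cells, 7.62, 9.03 and 8.84 with IL-1β alone, 10.34, 10.84 and 10.97 with GlcN, 9.69, 10.70 and 10.76 with GlcN and alloxan, and 8.26, 9.42 and 9.62 with alloxan alone. The GlcN arrays were the highest in every experiment and, with the arrays of GlcN and alloxan, overlapped none of the other 9 arrays. The change of 2.22 ± 0.46 with GlcN was the largest among the 10 genes (limma with block, adjusted p = 3.69e-06). ATF4 itself, the factor at the head of the response, had log2 signals of 9.30, 10.92 and 11.06 in resting cells, 9.33, 11.07 and 10.87 with IL-1β alone, 10.23, 11.52 and 11.83 with GlcN, 10.18, 11.53 and 11.96 with GlcN and alloxan, and 9.68, 11.19 and 11.42 with alloxan alone. With GlcN it was higher by 0.77 ± 0.27, with an adjusted p of 0.000434 in the blocked limma fit. This value rests on the choice of transcript cluster. The array has a second ATF4 cluster, whose change with GlcN was -0.18 ± 0.23 (limma with block, adjusted p = 0.318), and the mean of both clusters gave 0.29 (adjusted p = 0.0303). The ATF4 cluster with the higher mean signal is used below, as for every gene with several clusters.

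CEBPB, a partner of both ATF4 and CHOP that is also known as a factor of inflammation in fibroblasts, had log2 signals of 7.41, 9.25 and 9.42 in resting cells, 8.08, 9.35 and 9.33 with IL-1β alone, 9.63, 10.68 and 10.84 with GlcN, 8.91, 10.29 and 10.54 with GlcN and alloxan, and 8.24, 9.68 and 9.88 with alloxan alone. The GlcN array was the highest in each experiment. Its rise with GlcN of 1.46 ± 0.11 had the smallest SD among the genes that rose (limma with block, adjusted p = 4.03e-05). CEBPG, a C/EBP protein that pairs with ATF4 on amino acid genes, had log2 signals of 8.09, 9.52 and 9.51 in resting cells, 8.02, 9.30 and 9.47 with IL-1β alone, 9.41, 10.25 and 10.55 with GlcN, 9.23, 10.04 and 10.42 with GlcN and alloxan, and 8.24, 9.45 and 9.71 with alloxan alone. It rose with GlcN by 1.14 ± 0.23, and its resting, IL-1β and alloxan arrays lay below both arrays with GlcN in every experiment.

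Among the feedback genes, TRIB3, a pseudokinase that holds back ATF4 and CHOP, had log2 signals of 7.06, 8.65 and 8.93 in resting cells, 6.92, 8.59 and 8.74 with IL-1β alone, 8.89, 9.98 and 10.25 with GlcN, 8.004, 9.48 and 9.83 with GlcN and alloxan, and 7.18, 8.74 and 9.02 with alloxan alone. It rose by 1.62 ± 0.31 with GlcN (limma with block, adjusted p = 3.24e-06), and each GlcN array was above the array of GlcN and alloxan of its experiment. PPP1R15A, the phosphatase subunit that reverses eIF2α phosphorylation, had log2 signals of 8.82, 10.55 and 10.50 in resting cells, 8.79, 10.51 and 10.27 with IL-1β alone, 9.71, 11.0035 and 10.89 with GlcN, 9.66, 10.90 and 11.23 with GlcN and alloxan, and 9.42, 10.73 and 10.90 with alloxan alone. The IL-1β array was the lowest of the 5 in each experiment, and PPP1R15A had the smallest rise of the 8 genes, 0.68 ± 0.22 (limma with block, adjusted p = 0.00272). Its call was lost without experiment 1 (limma with block, adjusted p = 0.0706) and without experiment 3 (0.0502), and the other 7 genes passed with each experiment left out in turn.

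CHAC1, an enzyme that degrades glutathione and is induced through ATF4 and CHOP, had log2 signals of 6.85, 8.57 and 8.13 in resting cells, 6.94, 8.50 and 8.16 with IL-1β alone, 8.79, 9.84 and 9.77 with GlcN, 8.41, 9.27 and 9.51 with GlcN and alloxan, and 7.63, 8.87 and 8.93 with alloxan alone. It rose by 1.60 ± 0.25 with GlcN, close to TRIB3 and NUPR1 in size. NUPR1, a small stress-induced chromatin protein, had log2 signals of 5.96, 7.44 and 7.76 in resting cells, 5.93, 7.49 and 7.67 with IL-1β alone, 7.59, 9.20 and 8.93 with GlcN, 7.39, 8.63 and 8.61 with GlcN and alloxan, and 6.27, 7.63 and 7.86 with alloxan alone. It rose by 1.55 ± 0.24 with GlcN, and each of its GlcN arrays was the highest of its experiment.

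ATF3, a factor of the same family induced by many stresses, had log2 signals of 5.71, 6.84 and 7.28 in resting cells, 5.99, 6.86 and 7.49 with IL-1β alone, 6.09, 7.03 and 7.57 with GlcN, 6.26, 7.39 and 7.59 with GlcN and alloxan, and 6.61, 7.57 and 7.83 with alloxan alone. The alloxan array was the highest and the resting array the lowest in every experiment. ATF5, whose mRNA is translated in the same way as that of ATF4, had log2 signals of 6.89, 8.15 and 8.88 in resting cells, 6.86, 8.11 and 8.84 with IL-1β alone, 7.12, 8.65 and 8.86 with GlcN, 7.36, 8.64 and 8.97 with GlcN and alloxan, and 7.69, 9.19 and 9.31 with alloxan alone. Here too the alloxan array was the highest in all 3 experiments. With GlcN the changes were 0.11 ± 0.05 for ATF3 and 0.27 ± 0.26 for ATF5, and neither passed in the blocked limma fit (adjusted p = 0.44 and 0.142).

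**Figure D1:**
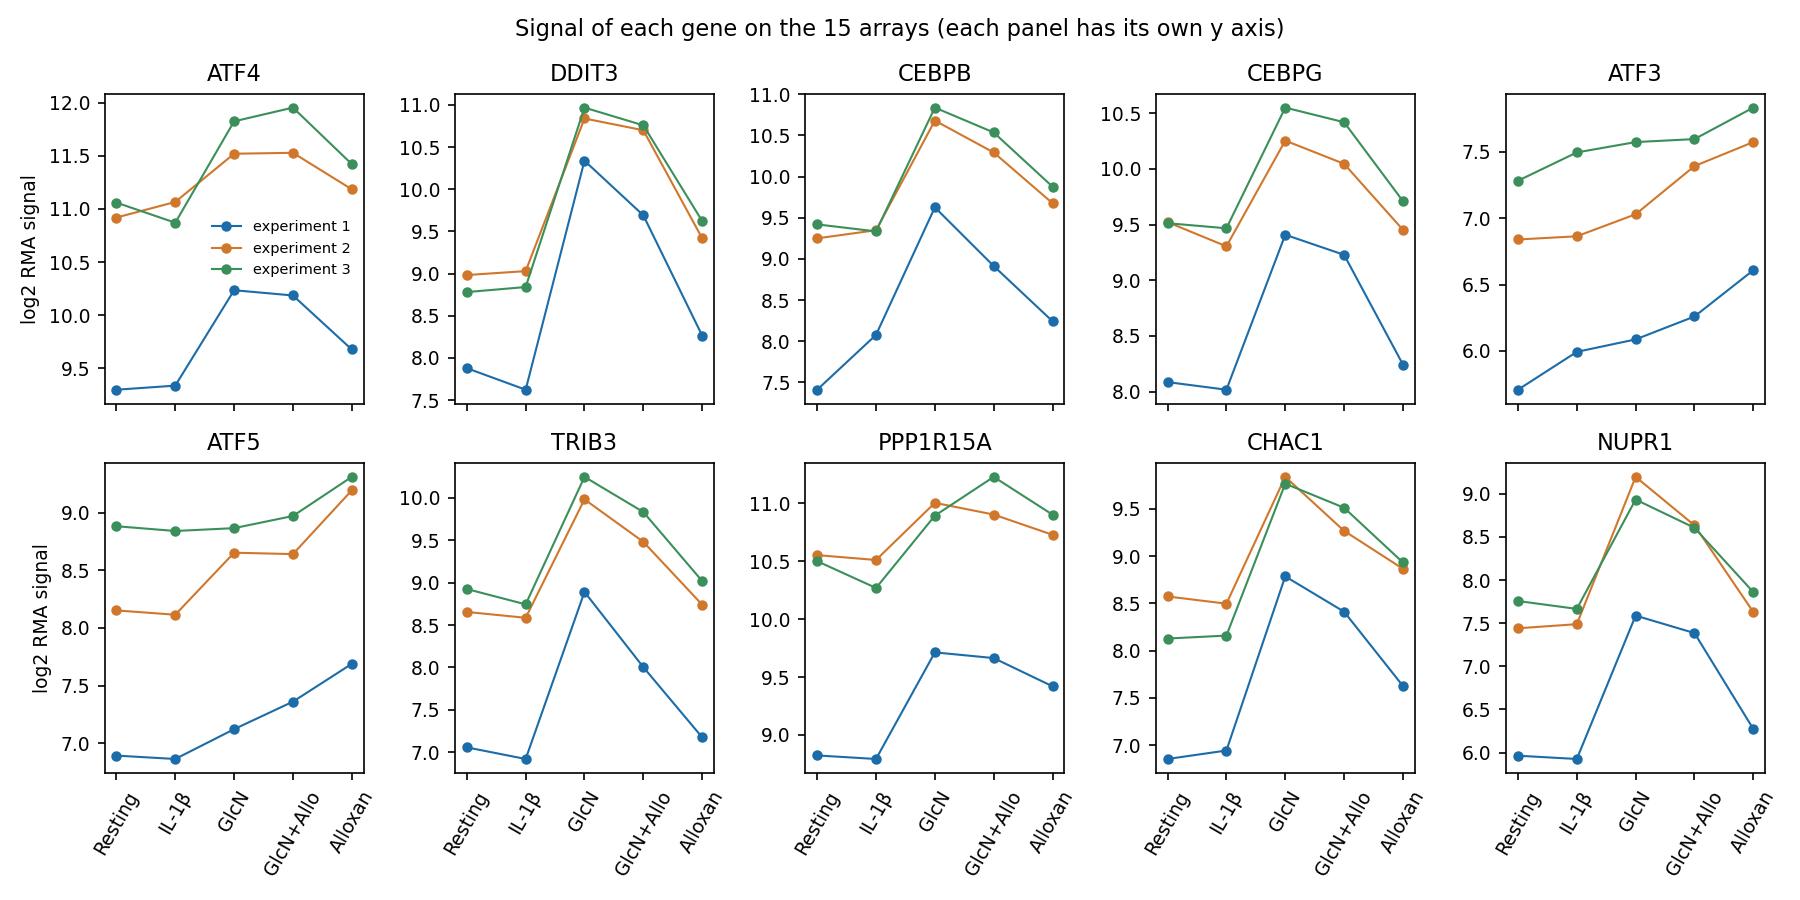
Log2 RMA signal (y axis, a separate scale for each gene) of the 10 genes on the 15 arrays, by condition (x axis), with 1 line for each of the 3 experiments. The lines of DDIT3, CEBPB, CEBPG, TRIB3, CHAC1 and NUPR1 peak at GlcN in all 3 experiments, while those of ATF3 and ATF5 peak at alloxan alone.

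With alloxan alone the leading gene was ATF5, and the changes of ATF5 and ATF3 had larger means than with GlcN while those of the other 8 had smaller ones. ATF5 rose by 0.79 ± 0.31, CHAC1 by 0.61 ± 0.21, DDIT3 by 0.60 ± 0.20, ATF3 by 0.55 ± 0.19, PPP1R15A by 0.49 ± 0.24 and ATF4 by 0.34 ± 0.22 over IL-1β alone in the blocked limma fit, 6 of 10 genes beside 6.13% of all genes. Adjusted p-values of that fit were 0.000967 for ATF5 and 0.00122 for ATF3, and 0.0139 to 0.0391 for the other 4. The 4 that did not pass were CEBPB at 0.35 ± 0.19, TRIB3 at 0.23 ± 0.06, NUPR1 at 0.23 ± 0.11 and CEBPG at 0.21 ± 0.05. All 10 were higher in each experiment, as were 20.5% of all genes, and the median change was 0.42, against 0.01 over all genes. In the unblocked limma fit 0 passed, with 0 at an unadjusted p under 0.05, and the methods' t-test called 0. With the block, leaving out experiment 1, 2 or 3 gave 2, 5 or 2 genes past the threshold, and when the blocked fit held just the alloxan and IL-1β arrays 0 passed. None of the 10 was called lower, where 7.21% of all genes were. ATF4 was at -0.04 on its other cluster.

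GlcN and alloxan arrays were also set against each other, a comparison added after these values had been seen. In the blocked limma fit 7 genes were higher with GlcN than with alloxan (7.66% of all genes) and 2 were lower (7.83%). The 7 were DDIT3 by 1.61 ± 0.40, TRIB3 by 1.40 ± 0.28, NUPR1 by 1.32 ± 0.25, CEBPB by 1.12 ± 0.23, CHAC1 by 0.99 ± 0.16, CEBPG by 0.93 ± 0.20 and ATF4 by 0.43 ± 0.11. On its other cluster ATF4 was at -0.14. The 2 that were lower with GlcN were ATF5, at -0.52 ± 0.06 (limma with block, adjusted p = 0.00776), and ATF3, at -0.44 ± 0.16 (0.00312). ATF5 was also lower with the block over only these groups (limma, adjusted p = 0.031), where ATF3 (0.0711) and ATF4 (0.053) did not pass. Leaving out experiment 1 ended both lower calls, and 6 genes were then higher. PPP1R15A differed by 0.19 ± 0.17 and did not pass. In the unblocked limma fit 0 passed, with 3 at an unadjusted p under 0.05 (0.0296% of all genes called higher), and the methods' t-test called 1 without adjustment.

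**Figure D2:**
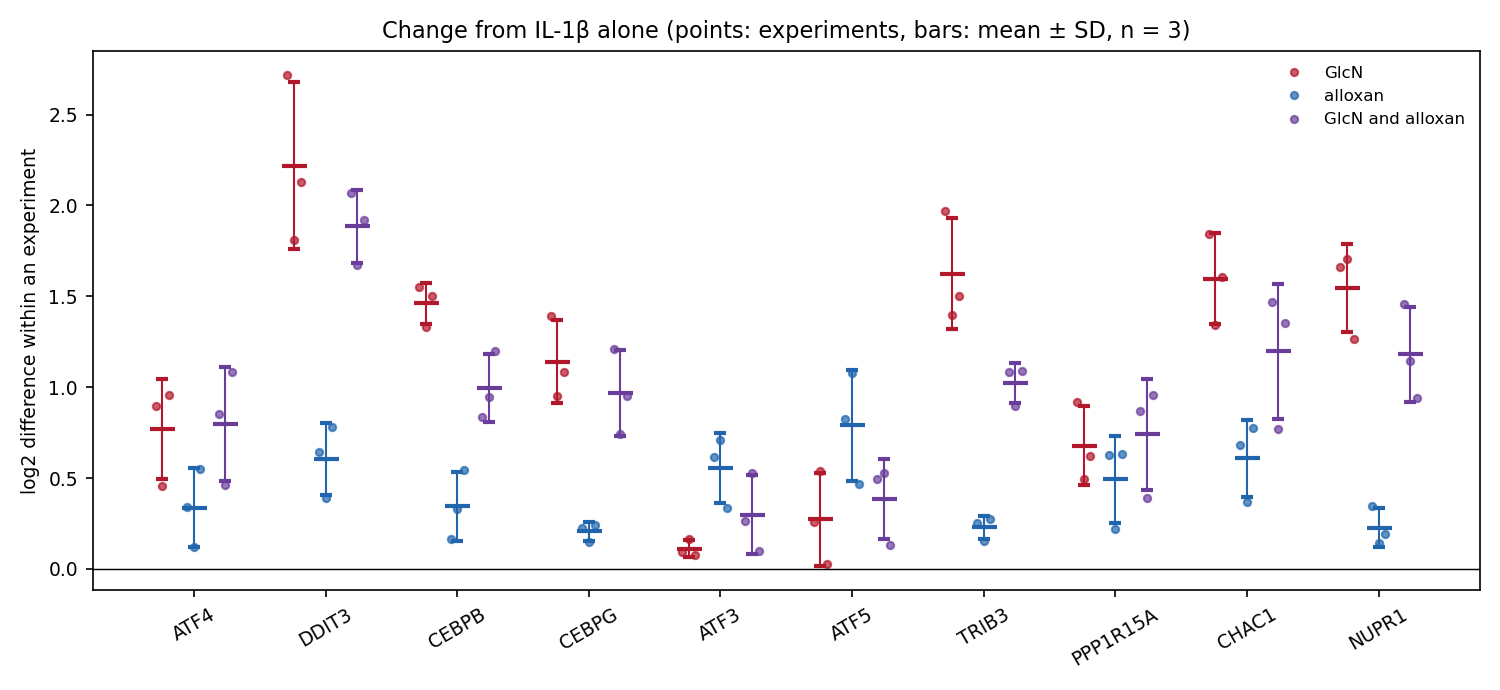
Change from IL-1β alone within an experiment (y axis, log2) for each gene (x axis) with GlcN, with alloxan and with both. Points are the 3 experiments, and bars are the mean ± SD. The 3 comparisons share the IL-1β arrays. DDIT3 has the highest mean with GlcN (2.22) and ATF5 with alloxan (0.79).

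With GlcN and alloxan together, all 10 genes rose over IL-1β alone in the blocked limma fit, where 9.06% of all genes did and 8.47% fell. DDIT3 rose by 1.89 ± 0.20, CHAC1 by 1.20 ± 0.37, NUPR1 by 1.18 ± 0.26, TRIB3 by 1.02 ± 0.11 and CEBPB by 0.99 ± 0.19. CEBPG followed at 0.97 ± 0.24, ATF4 at 0.80 ± 0.31 and PPP1R15A at 0.74 ± 0.30. The smallest rises were those of ATF5 (0.38 ± 0.22, limma with block, adjusted p = 0.0318) and ATF3 (0.30 ± 0.22, adjusted p = 0.0236). With the block over only these groups DDIT3 and TRIB3 passed (limma, adjusted p = 0.0491 and 0.0495). In the unblocked limma fit 0 passed, with 3 at an unadjusted p under 0.05 (0% of all genes were called higher and 0.00593% lower), and the methods' t-test called 1 without adjustment. ATF4 was at 0.00 on its other cluster.

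Against GlcN alone, 1 of the 10 genes differed with GlcN and alloxan in the blocked limma fit, TRIB3, which fell by 0.60 ± 0.25 (0.659-fold, adjusted p = 0.00432), beside 3.52% of all genes called lower and 3.27% called higher. The means of CEBPB, CHAC1, NUPR1, DDIT3 and CEBPG were -0.47 ± 0.22, -0.40 ± 0.16, -0.36 ± 0.18, -0.33 ± 0.28 and -0.17 ± 0.04, and none of these passed (adjusted p from 0.0552 to 0.355). These 5 and TRIB3 were lower in every experiment, 6 of 10 genes, which was so for 14.0% of all genes. ATF4 at 0.03 ± 0.09, PPP1R15A at 0.06 ± 0.24, ATF5 at 0.11 ± 0.13 and ATF3 at 0.19 ± 0.17 lay on the other side of 0. The other ATF4 cluster was at 0.18 ± 0.10 here, above 0 in every experiment. Without experiment 2 or without experiment 3 the TRIB3 call was lost and 0 of the 10 passed in the blocked limma fit. It was also lost over only the groups compared. In the unblocked limma fit and the methods' t-test 0 passed, with 0 at an unadjusted p under 0.05.

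With GlcN added to alloxan, 7 genes rose over alloxan alone in the blocked limma fit, beside 1.86% of all genes. DDIT3 rose by 1.28 ± 0.15 (adjusted p = 0.000418), NUPR1 by 0.95 ± 0.19, TRIB3 by 0.79 ± 0.05, CEBPG by 0.76 ± 0.20, CEBPB by 0.65 ± 0.03, CHAC1 by 0.59 ± 0.19 and ATF4 by 0.46 ± 0.10. PPP1R15A was at 0.25 ± 0.08, ATF3 at -0.26 ± 0.09 and ATF5 at -0.41 ± 0.13, and these 3 did not pass. Fewer genes passed with an experiment left out, 4 without experiment 1, 3 without experiment 2 and 1 without experiment 3. None was called lower, where 1.67% of all genes were. When the blocked fit held just these arrays, 0 passed after adjustment. In the unblocked limma fit 0 passed, with DDIT3 the 1 gene at an unadjusted p under 0.05, and the methods' t-test called 0. ATF4 was at 0.04 on its other cluster.

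The GlcN change was smaller with alloxan than without it for each of the 10 genes in each of the 3 experiments, which was so for 17.2% of all genes. The difference between the changes, the interaction, had a median of -0.64 over the 10 genes and -0.02 over all genes tested. It was -1.01 ± 0.06 for CHAC1, -0.94 ± 0.38 for DDIT3, -0.83 ± 0.27 for TRIB3 and -0.81 ± 0.09 for CEBPB. For ATF5, NUPR1, PPP1R15A, CEBPG, ATF3 and ATF4 it was -0.68 ± 0.37, -0.59 ± 0.10, -0.43 ± 0.21, -0.38 ± 0.03, -0.37 ± 0.07 and -0.31 ± 0.17, and on the other ATF4 cluster it was 0.22. In the limma fits 0 of the 10 passed after adjustment (0.0593% of all genes were called lower and 0.0119% higher with the block), with 10 at an unadjusted p under 0.05 with the block and 0 without it. The share of all genes at that unadjusted threshold was not counted, so that the count of 10 has no background. The smallest adjusted p was that of TRIB3, 0.062 in the blocked limma fit. ATF3 and ATF5 were the members whose GlcN change was positive without alloxan and negative with it in all 3 experiments.

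**Figure D3:**
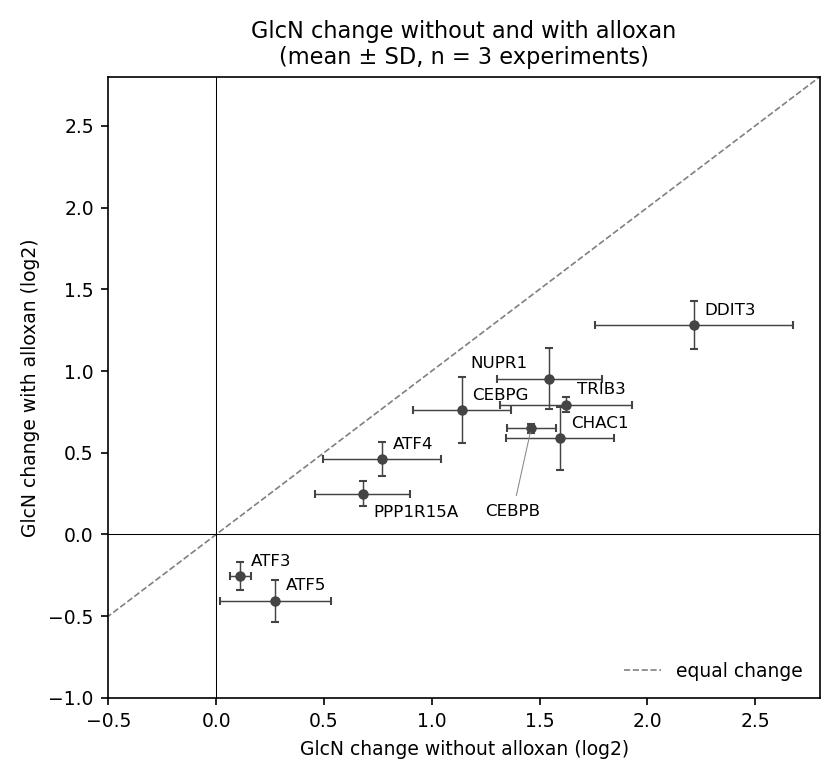
GlcN change without alloxan (x axis, log2, against IL-1β alone) and with alloxan (y axis, log2, against alloxan alone), as mean ± SD of 3 experiments, where the dashed line marks equal changes. All 10 genes lie below the line, and ATF3 (0.11 and -0.26) and ATF5 (0.27 and -0.41) also lie below 0 on the y axis.

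IL-1β alone was compared with resting cells to see what stimulation did by itself. None of the 10 genes passed in either limma fit, with 0 at an unadjusted p under 0.05 in both, and 0% of all genes were called. The methods' t-test also called 0. ATF3, at 0.17 ± 0.13, was higher in all 3 experiments, as 8.88% of all genes were. CEBPB differed between experiments, at 0.67, 0.10 and -0.09. TRIB3 (-0.13 ± 0.06), CEBPG (-0.11 ± 0.09), PPP1R15A (-0.10 ± 0.11) and ATF5 (-0.04 ± 0.01) were lower in each experiment, a pattern of 11.3% of all genes. DDIT3, NUPR1, CHAC1 and ATF4 were at -0.05 ± 0.18, -0.03 ± 0.07, 0.01 ± 0.08 and 0.00 ± 0.17.

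Ordered by their mean after each experiment was centred, the conditions ran GlcN, GlcN and alloxan, alloxan for DDIT3, CEBPB, CEBPG, TRIB3, CHAC1 and NUPR1, with resting cells and IL-1β lowest. In these 6 genes GlcN was above the combination, and the combination above alloxan, in all experiments. Alloxan was above the next condition in all experiments for 5 of them and in 2 of 3 for CEBPG, where its step of 0.10 was within the spread. For ATF4 and PPP1R15A the combination had the highest mean, but GlcN was within 0.03 and 0.06 of it, and the order of the 2 changed between experiments. Alloxan ranked next in both, and GlcN was above it in 2 of 3 experiments for PPP1R15A. For ATF3 and ATF5 the order began with alloxan, then the combination, then GlcN, and for ATF5 the combination was above GlcN in 2 of 3 experiments. Resting cells and IL-1β, the neighbours at the low end, differed by 0.00 to 0.23. Over the 15 centred arrays, which share their conditions, the highest Pearson correlations among members were DDIT3 with CEBPG (0.98), DDIT3 with CHAC1 (0.97) and CEBPG with TRIB3 (0.97). ATF3 and ATF5 correlated at 0.90 with each other. With the other members their correlations ran from 0.13 and 0.12 with TRIB3 to 0.51 and 0.49 with PPP1R15A. Outside the list, the genes most like DDIT3 over these arrays were SARS1 (0.989), TRAM1 (0.985), WARS1 (0.980), MTHFD2 (0.980) and EDEM1 (0.980). Those most like ATF4 were CSGALNACT2 (0.965), ZNF716 (0.964), SLC3A2 (0.963), SESN2 (0.958) and ZFAND2A (0.958).

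The other genes of the pathway were taken from lists of upstream genes, family members and targets. These lists overlap. JDP2 counts both as an ATF/CREB and C/EBP family gene and as a target, and PPP1R15B both as an upstream gene and as a relative of the feedback genes. Of 15 genes upstream of ATF4 (the eIF2α kinases, subunits of eIF2 and eIF2B, and their regulators), 1 rose and 1 fell with GlcN in the blocked limma fit, about the share among all genes (5.29% higher and 6.62% lower). DNAJC3, a chaperone that inhibits eIF2α kinases and is itself a gene of the unfolded protein response, rose by 1.27 ± 0.21 (adjusted p = 3.24e-06), and EIF2B1 fell by 0.22 ± 0.07. EIF2AK1, the heme-regulated kinase, was at -0.09 and EIF2B3 at 0.22, and the median of the 15 was 0.03. Of 14 other ATF/CREB and C/EBP genes tested, 3 rose with GlcN, JDP2 by 0.64 ± 0.10, ATF6 by 0.46 ± 0.23 and CREB3 by 0.34 ± 0.13. In the same list CREB3L1 fell by 0.20 ± 0.06. The median of the 14 was 0.04. Among the relatives of the feedback genes TRIB1 fell by 0.28 ± 0.10, while TRIB2 (-0.18 ± 0.07), CHAC2 (-0.12 ± 0.26), PPP1R15B (0.02 ± 0.07) and NUPR2 (0.00 ± 0.09) did not pass. Without the block 0 genes of these 3 lists passed in limma, with DNAJC3 the 1 gene at an unadjusted p under 0.05. When the blocked limma fit held just the GlcN and IL-1β arrays 0 passed too, and the adjusted p was 0.0761 for DNAJC3 and 0.0813 for JDP2.

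Of 24 other genes listed as targets of ATF4 or CHOP, 15 rose and 4 fell with GlcN in the blocked limma fit, beside 5.29% and 6.62% of all genes, with a median of 0.68. INHBE, a secreted activin subunit, rose by 3.05 ± 0.34 and was the 1 target that also passed in the unblocked limma fit (adjusted p = 0.00259). HERPUD1, which serves the degradation of misfolded ER proteins, rose by 1.52 ± 0.33, PHGDH, the first enzyme of serine synthesis, by 1.36 ± 0.09, and SESN2, which restrains mTORC1 under amino acid lack, by 1.33 ± 0.19. The 4 that fell, named after their values were seen, were STC2, CDKN1A, BCL2L11 and ERO1A, by 0.23 to 0.49. When the blocked limma fit held just the GlcN and IL-1β arrays, 0 of the 24 passed, and the smallest adjusted p was 0.062. With alloxan 7 targets rose and 1, IFRD1, fell, at -0.27 ± 0.07, and the median was 0.11, beside 6.13% of all genes called higher and 7.21% lower. The 7, named after their values were seen, were GDF15 (1.63), CDKN1A (0.88), DDIT4 (0.88), SESN2 (0.80), GADD45A (0.61), TNFRSF10B (0.48) and KLHL24 (0.45). Of these, CDKN1A was among the 4 that fell with GlcN, and GADD45A, at 0.08, did not pass with GlcN. INHBE, HERPUD1 and PHGDH were at -0.41, -0.21 and 0.15 with alloxan and did not pass. Also with alloxan, OMA1 fell by 0.28 ± 0.10 among the upstream genes, BATF3 and CREB3 rose and CREB3L1 and CREB3L2 fell in the family list, and 0 of the 5 relatives passed in the blocked limma fit, with 2 at an unadjusted p under 0.05. None of these alloxan calls was made by the unblocked limma fit, where 1 target was at an unadjusted p under 0.05, or by the blocked limma fit of just the alloxan and IL-1β arrays. For the interaction 3 targets were called lower and 0 higher with the block, SESN2 at -0.89 ± 0.13, GDF15 at -1.52 ± 0.23 and DDIT4 at -1.15 ± 0.18. These stand beside 0.0593% and 0.0119% of all genes. Without the block 0 targets passed in limma, with 0 at an unadjusted p under 0.05. GDF15 and DDIT4 were named after their values were seen. Against GlcN alone, alloxan added to GlcN left SESN2, GDF15 and DDIT4 at -0.09, 0.11 and -0.27, and none of these passed with the block. For the interaction, with the block over only its groups, SESN2 and GDF15 passed (limma, adjusted p = 0.0226 for each) and DDIT4 did not (0.0906).

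**Figure D4:**
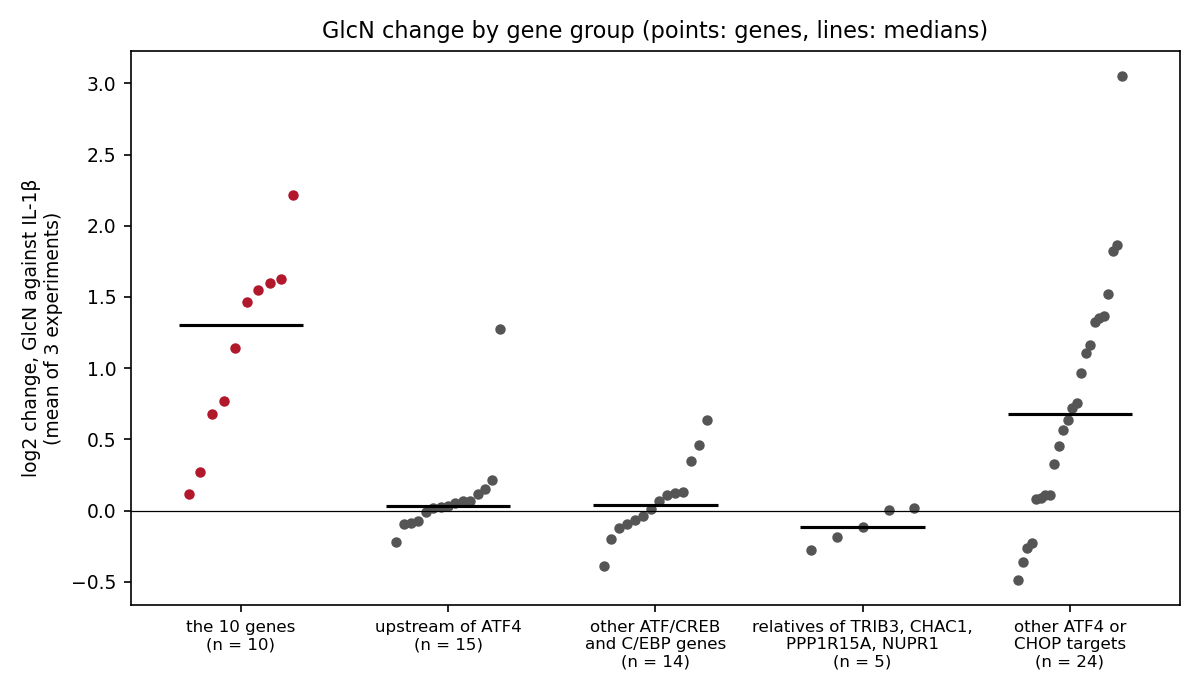
Change with GlcN against IL-1β alone (y axis, log2, mean of 3 experiments) for the genes of each list (x axis), with 1 point for each gene and a line at the median. The median is 1.30 for the 10 genes, 0.68 for the 24 other targets, and 0.03 and 0.04 for the upstream genes and the other family members. For the 5 relatives of the feedback genes it is -0.12.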

How the data were processed

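Affymetrix Human Gene 1.0 ST arrays were summarised by the authors with RMA in Affymetrix Expression Console, per the labels, and deposited as log2 values, 1 for each transcript cluster. The version of neither was given in the sources used here. Precision is limited by the number of arrays. Groups and experiment numbers came from the labels. Of 33297 clusters, 19460 had 1 symbol in the platform annotation, 1754 several and 12083 none listed, and 19429 were named through a RefSeq gene ID. Those with several were dropped. The cluster with the highest mean stood for its gene, and 16872 genes at or above the 20th percentile of an array on at least 3 arrays were tested with limma 3.58.1 (R 4.3.3, lmFit and eBayes, two-sided, Benjamini-Hochberg adjustment over all genes, threshold 0.05). Figures were drawn with matplotlib 3.10.9 in Python 3.11.15.

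The main fit had 5 group means over all 15 arrays and no block, since the test in the methods was unpaired. Deviations from the group means correlated at 0.621 to 0.848 in the 30 pairs of arrays that share an experiment number and at -0.723 to -0.068 in the other 75. Deviations within a group sum to 0, which pushes the second range below 0. The first range shows that arrays with the same number share deviations, and whether their cultures were paired was not tested. The methods' t-test was run on the deposited log2 values, and the further normalization that the study's values had was not repeated. The 10 genes and the other lists were chosen with earlier results of these data known. Named were all 10 members, the listed relatives, up to 4 genes of each other list with the smallest blocked p for GlcN, and the 5 genes most correlated with ATF4 and with DDIT3. GlcN against alloxan, and the other ATF4 cluster, were added after the data were seen. Alternatives were the block, quantile normalization or equal medians, a 50th percentile filter or none, the methods' t-test, robust moderation with an intensity trend, averaging the clusters of a gene, fitting just the groups of a comparison, and leaving out each experiment. Both fits were run on simulated data with independent noise, as a check of the code for GlcN against IL-1β. Recovery of strongly changed genes was required only of the blocked fit. No condition was set on false calls or on the interaction.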

Additional observations from a re-analysis of the deposited data

Results flagged for a closer look

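The GlcN change of ATF3 and ATF5 was positive without alloxan and negative with it in all 3 experiments. The difference between the changes was -0.37 for ATF3 and -0.68 for ATF5, and it did not pass in the limma fit with the experiment as a block (adjusted p = 0.306 and 0.158). Among the 24 listed targets, the GlcN change differed with alloxan in the blocked limma fit for SESN2 (-0.89, adjusted p = 0.00515), GDF15 (-1.52, adjusted p = 0.00515) and DDIT4 (-1.15, adjusted p = 0.0309), each negative in 3 of 3 experiments. With alloxan alone SESN2, GDF15 and DDIT4 rose over IL-1β alone by 0.80, 1.63 and 0.88 in the blocked fit. Alloxan added to GlcN changed them by -0.09, 0.11 and -0.27 against GlcN alone, and none of these changes passed. Over all genes tested 12 had a called interaction, 10 lower and 2 higher. When the blocked limma fit held just the groups of the interaction, DDIT4 did not pass for it (adjusted p = 0.0906). In the unblocked limma fit none of the 3 interactions passed.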

How the results depend on the processing

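The unblocked limma fit called 0 of the 10 genes in every comparison. With the replicate block, which pairs the arrays of an experiment, the counts were 8 for GlcN, 6 for alloxan, 10 for both agents against IL-1β, 1 for alloxan added to GlcN, 7 for GlcN added to alloxan, 9 for GlcN against alloxan and 0 for the interaction, and a trend with robust moderation gave the same counts. In the same order, the block gave 8, 6, 10, 3, 8, 9 and 1 with the 50th percentile filter, 8, 6, 10, 2, 7, 9 and 1 with quantile normalization, 8, 5, 10, 1, 6, 8 and 0 with the mean over clusters, 7, 5, 9, 1, 6, 8 and 0 with the other ATF4 cluster, and 0, 0, 2, 0, 0, 7 and 0 over only the groups compared. Without the block, equal medians and quantile normalization each gave 6, 1, 6, 0, 2, 7 and 0. No filter and the mean over clusters without the block gave 0 throughout. The methods' t-test without adjustment called 1 for GlcN, 1 for both agents and 1 for GlcN against alloxan. IL-1β against resting cells gave 0 in every alternative. Leaving out an experiment, with or without the block, gave 0 to 8 for GlcN, 0 to 5 for alloxan, 0 to 10 for both, 0 to 1 for alloxan added to GlcN, 0 to 4 for GlcN added to alloxan and 0 to 9 for GlcN against alloxan. The cause of these differences beyond the removal of the gap between experiments was not tested.

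Of 1358 recomputed changes of single members, 22 reversed. On the other ATF4 cluster ATF4 was at -0.18 for GlcN, -0.0383 for alloxan, -0.14 for GlcN against alloxan, 0.22 for the interaction and 0.10 for IL-1β. For IL-1β, ATF4 was at 0.0486 with the mean over clusters, and CHAC1 at -0.0128 with equal medians and -0.00100 with quantile normalization. With an experiment left out, the IL-1β change ran from -0.10 to 0.0532 for DDIT3, -0.02265 to 0.0602 for CHAC1, -0.0755 to 0.0928 for ATF4 and -0.0647 to 0.0047 for NUPR1, and alloxan added to GlcN from -0.0204 to 0.069 for ATF4 and -0.0752 to 0.14 for PPP1R15A. With 3 experiments, changes near 0 have no settled direction.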
